A study of Homo sapiens with 47 samples.

Results

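The genes described here are 10 target genes of Wnt/β-catenin signaling: *AXIN2*, *LGR5*, *NKD1*, *RNF43*, *ZNRF3*, *ASCL2*, *SP5*, *TCF7*, *LEF1* and *MYC*. They were taken by symbol from a table of 57507 genes, in which each of the 10 symbols stands once, and their levels were followed over all 47 RNA libraries of 2 human cell lines. HAP1 is a near-haploid line from a chronic myeloid leukemia, and its 32 libraries come from 8 lines with 4 replicates each: the wild type (WT), a control that received Cas9 but no guide RNA (EV) and 6 clones carrying a mutated *NUP58* (C1 to C6). *NUP58* encodes a nucleoporin of the central channel of the nuclear pore complex. HCT116 is a colorectal carcinoma line that carries an activating mutation of *CTNNB1*, the gene of β-catenin. Its 15 libraries are 4 labelled as a *NUP58*-mutated clone and 11 unedited controls: 2 of WT, 3 of EV1, 4 of EV2 (both Cas9 controls without a guide RNA) and 2, numbered replicate 4, whose title and genotype disagree on WT or EV1. Each edited line grew from a single cell, so a line is 1 clone.

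In the absence of a Wnt ligand, a destruction complex built on AXIN and APC marks β-catenin for degradation. Binding of a ligand to a Frizzled receptor and LRP5 or LRP6 stops this, and β-catenin enters the nucleus, where it binds TCF and LEF proteins on target genes. Several of the targets act back on the pathway. AXIN2 and NKD1 dampen the signal inside the cell, RNF43 and ZNRF3 remove Frizzled receptors from the surface, LGR5 binds R-spondins, which counter RNF43 and ZNRF3, SP5 represses other targets, TCF7 and LEF1 are themselves DNA-binding partners of β-catenin, ASCL2 is a transcription factor of intestinal stem cells, and MYC drives cell growth. In the intestine this set marks the crypt base, and in colorectal cancer mutations of *APC* or *CTNNB1* keep it active.

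Because β-catenin reaches these genes through TCF and LEF proteins, the promoters were searched for the letters that these proteins recognize. *SP5* (ENSG00000204335.3, chromosome 2, 170715337 to 170718078, plus strand, GRCh38, GENCODE release 44) is the member with the largest log2 fold change in the HCT116 clone, and the 250 bases before its start (chr2:170715087-170715336, plus strand, GRCh38.p14, RefSeq) are shown for that reason. Capitals mark 3 matches of CTTTGAT or CTTTGAA on either strand, where a match on the other strand reads ATCAAAG or TTCAAAG:

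SP5: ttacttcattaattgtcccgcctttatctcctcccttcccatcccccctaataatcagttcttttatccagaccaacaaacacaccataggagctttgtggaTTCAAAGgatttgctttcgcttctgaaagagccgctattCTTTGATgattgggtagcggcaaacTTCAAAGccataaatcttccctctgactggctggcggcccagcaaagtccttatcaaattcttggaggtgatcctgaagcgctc

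The matches begin 148, 109 and 84 bases before the start and do not overlap. Of 35116 RefSeq promoter windows of the same length, 2.26% held CTTTGAT and 3.8% held CTTTGAA on either strand, 5.94% held at least 1 match of either, and 7 windows (0.0199%) held at least 3. The single window of *LEF1* and both windows each of *TCF7* and *RNF43* held none, which says only that these letters are not within 250 bases of those starts. The table used here gave windows for these 4 members. *AXIN2*, *LGR5*, *NKD1*, *ZNRF3* and *ASCL2* had none in it. A match of letters is a description and not a measured binding site.

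Levels are given as FPKM, fragments per length of transcript scaled to the mapped fragments of the library, which can be compared between genes because they are per length. Summed over all genes they came to 604053 to 721992 per library. FPKM carry no count, and the depth behind a value is unknown. The libraries are bulk RNA, in which fewer cells of a type and less RNA per cell cannot be told apart. *NUP58* itself checks the labels. In HAP1 it lay between 34.3 and 50.4 in the 8 unedited libraries and below all of these in each of the 24 clone libraries. In HCT116 it was 25.3, 23.3, 44.7 and 24.3 in the libraries labelled clone replicates 1 to 4, and 28.7 to 50.3 in 10 of the 11 controls, with 23.95 in the library labelled EV2 replicate 3. The library labelled clone replicate 3 thus had a control-like value and the library labelled EV2 replicate 3 a clone-like one, and results on the HCT116 clone are given with and without the libraries numbered 3, and members between the cell lines with and without EV2 replicate 3. The labels do not say that replicates came from separate cultures, so a p-value measures only the spread between these libraries. Of 10 markers of colon epithelium, 6 passed a filter of a mean FPKM of at least 1. All 6 were higher in unedited HCT116 than in unedited HAP1 (KRT19, log2 fold change 7.85, adjusted p = 1.93e-18, limma). EPCAM, CDH1 and KRT19 averaged under 1 in HAP1 and passed only through HCT116. Below the filter KRT20 was higher in HCT116 (0.704 against 0.0205), while LGALS4 (0.0556 against 0.417) and VIL1 (0.0315 against 0.0727) were lower. The summed FPKM of all 10 was 1392 to 2372 in HCT116 and 49.2 to 66.0 in HAP1. CDX1 was at 0 in every unedited library. Of 10 blood markers PTPRC, SPI1, GATA1 and HBG1 were at 0 in all 32 HAP1 libraries, while TAL1 had a mean of 18.1 in WT, 1.26 in EV and 0.077 in the HCT116 controls, and RUNX1 was at 2.00 in unedited HAP1 and 8.05 in the HCT116 controls.

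The levels in the unedited cells come first (11 HCT116 and 8 HAP1 libraries). Of the 7 members that passed a filter of a mean FPKM of at least 1 over these libraries, all 7 differed at an adjusted p under 0.05 (limma on log2(FPKM + 1)). This cut was passed by 68% of the 13538 genes tested, 28.5% of them higher in HCT116 and 39.5% lower. *RNF43* averaged 0.797 in HAP1 and *LEF1* 0.0876 in HCT116, so each passed the filter only through the line where it was high. The count of 7 is therefore not read against the 68%. The share of all genes without overlap between the lines is not given, so non-overlap below only describes each gene. *RNF43*, *TCF7* and *AXIN2* were higher in HCT116, and *LEF1*, *MYC*, *ZNRF3* and *NKD1* were lower. The median log2 fold change of the 7 was -0.41, beside -0.10 for all genes. With libraries scaled by median ratios the median of all genes was 0.001, and scaled to equal totals it was -0.17, so changes of that size are within what the scaling sets.

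**Figure D1:**
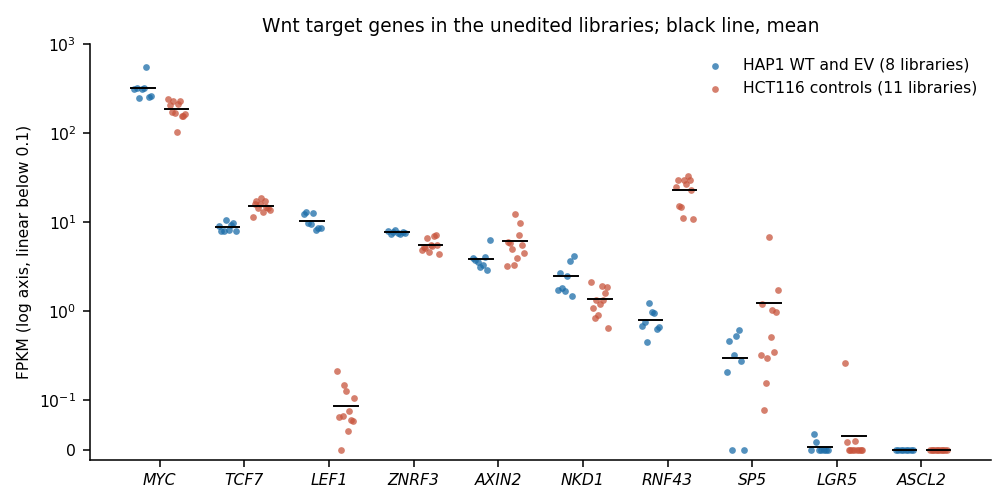
FPKM of the 10 Wnt target genes (log axis, linear below 0.1) in the 8 unedited HAP1 libraries (blue) and the 11 HCT116 controls (red), 1 point per library, with the mean as a black line. The 2 lines do not overlap in LEF1, MYC and ZNRF3 (HAP1 higher) or in RNF43 and TCF7 (HCT116 higher), and LGR5 and ASCL2 are at or near 0 in both. The share of all genes without overlap is not given, and limma called 68% of the genes tested between the lines.

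The 2 transcription factors that pair with β-catenin went opposite ways. *LEF1* (ENSG00000138795.9, chromosome 4, 108047545 to 108168956, minus strand) ran from 8.12 through a median of 9.73 to 12.9 FPKM in unedited HAP1 and from 0 through 0.0683 to 0.213 in the HCT116 controls. Every HAP1 library was above every HCT116 library, and the mean of HAP1 was 117-fold that of HCT116 (log2 fold change -3.36 on the log2(FPKM + 1) scale, standard error 0.0945, adjusted p = 1.28e-18). *TCF7* (ENSG00000081059.19) ran from 7.86 through 8.62 to 10.7 in HAP1 and from 11.4 through 14.8 to 18.9 in HCT116. The groups did not overlap here either, but the difference was smaller, 0.71 on the log2 scale (standard error 0.0872, adjusted p = 2.45e-07). The other 2 genes of this family, which are not among the 10, also split. *TCF7L2*, the main intestinal TCF, had a mean of 97.6 ± 12.2 (SD, n = 11) in HCT116 and 8.96 ± 2.09 (SD, n = 8) in HAP1. *TCF7L1*, known mainly as a repressor, had 8.76 ± 1.58 (SD, n = 11) in HCT116 and 25.6 ± 4.71 (SD, n = 8) in HAP1. Their log2 fold changes were 3.33 and -1.44 (adjusted p = 2.68e-17 and 2.31e-10). *CTNNB1* did not pass the test, with 122.5 in HCT116 and 118.9 in HAP1 (log2 fold change 0.04, adjusted p = 0.721).

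Of the ligases that clear Frizzled from the surface, *RNF43* (ENSG00000108375.12, chromosome 17, 58353676 to 58417595, minus strand) was higher in HCT116. It ran from 10.9 through 24.8 to 33.0 in the HCT116 controls and from 0.448 through 0.724 to 1.25 in HAP1, a 28.4-fold difference in means (log2 fold change 3.63, standard error 0.198, adjusted p = 2.41e-13). *ZNRF3*, a ligase of the same kind, ran from 7.36 to 8.19 in HAP1 and was lower in HCT116, where it ran from 4.36 to 7.23, without overlap (log2 fold change -0.41, standard error 0.0844, adjusted p = 0.000191). HCT116 therefore held 22.6 FPKM of *RNF43* beside 5.56 of *ZNRF3*, and HAP1 0.797 beside 7.65, as means.

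The intracellular feedback genes overlapped between the lines. *AXIN2* (ENSG00000168646.12, chromosome 17, 65528563 to 65561648, minus strand) ran from 3.19 through 5.54 to 12.4 in HCT116 and from 2.89 through 3.67 to 6.27 in HAP1. The groups overlapped, and the difference of 0.47 on the log2 scale (standard error 0.191, adjusted p = 0.0334) lost its call under 9 of 27 alternatives, among them leaving out the library labelled EV2 replicate 3 (adjusted p = 0.0532), which held the highest value, and scaling to equal totals (0.0595). *NKD1* ran from 0.649 through 1.32 to 2.14 in HCT116 and from 1.47 through 2.16 to 4.21 in HAP1, also with overlap (log2 fold change -0.54, standard error 0.155, adjusted p = 0.004). *MYC* was the most abundant member in both lines. It ran from 103 through 172 to 240.0 FPKM in HCT116 and from 244 through 309 to 547 in HAP1, without overlap (log2 fold change -0.78, standard error 0.154, adjusted p = 0.000126). With only the 4 HAP1 and 2 HCT116 libraries that both labels call wild type, *MYC*, *NKD1* and *ZNRF3* did not pass (adjusted p = 0.083 for *MYC*). Without EV2 replicate 3 the 6 members besides *AXIN2* kept their calls in limma, with log2 fold changes of 3.59 for *RNF43*, 0.68 for *TCF7*, -0.41 for *ZNRF3*, -0.53 for *NKD1*, -0.70 for *MYC* and -3.36 for *LEF1* (adjusted p at most 0.00639).

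The remaining members, *SP5*, *LGR5* and *ASCL2*, were below the filter. *SP5* ran from 0 to 0.611 in unedited HAP1 and from 0.081 through 0.514 to 6.79 in the HCT116 controls, and without a filter its adjusted p was 0.153. The 6.79 was that of EV2 replicate 3 and the next control was at 1.73, and without that library the mean was 0.665 ± 0.539 (SD, n = 10). *LGR5*, the marker of intestinal stem cells, did not exceed 0.0936 in any of the 32 HAP1 libraries or 0.263 in any of the 15 of HCT116. *ASCL2* was listed at 0 in all 47 libraries. In mean level the order in HCT116 was *MYC*, *RNF43*, *TCF7*, *AXIN2*, *ZNRF3*, *NKD1*, *SP5*, *LEF1*, *LGR5*, and in HAP1 *MYC*, *LEF1*, *TCF7*, *ZNRF3*, *AXIN2*, *NKD1*, *RNF43*, *SP5*, *LGR5*. Without EV2 replicate 3 *ZNRF3* (5.57) stood above *AXIN2* (5.42) in HCT116. Most neighbors in these orders overlapped in their libraries and are not separated beyond their spread. The gaps without overlap were those below *MYC* and between *ZNRF3* and *NKD1* in HCT116, and below *MYC*, between *ZNRF3* and *AXIN2* and between *NKD1* and *RNF43* in HAP1. Without EV2 replicate 3, *TCF7* (lowest 11.4) also did not overlap *ZNRF3* (highest 7.23) or *AXIN2* (highest 9.77) in HCT116.

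The counts of other pathway genes called between the lines stand beside 68% of all genes called, and nothing particular to the pathway is read from them. Of 17 other Wnt targets tested, 10 were higher in HCT116 and 2 lower, with *CCND1*, the gene of cyclin D1, at 151 ± 23.8 (SD, n = 11) against 1.95 ± 0.889 (SD, n = 8) FPKM (log2 fold change 5.72, adjusted p = 5.46e-20). *SOX9*, a transcription factor of the crypt, and the adhesion receptor *CD44* were higher too (log2 fold changes 5.03 and 7.04, adjusted p = 2.38e-19 and 6.74e-17). Of 11 ligand and secretion genes, 5 were higher and 6 lower. *WNT16* had a log2 fold change of 5.29, and *WNT5A* and *WNT5B*, ligands best known for signaling without β-catenin, had -3.18 and -1.80 (adjusted p at most 2.26e-12). Among 14 receptor genes 4 were higher and 5 lower, including the R-spondin receptor *LGR4*, with a mean of 53.1 in HAP1 and 3.51 in HCT116 (log2 fold change -3.63, adjusted p = 2.73e-15), *FZD9* at -1.55 and *FZD6* at 0.89. Of 6 secreted inhibitors, *DKK1* was higher in HCT116 (6.41) and *SFRP1* (-1.84) and *DKK3* (-1.99) were lower, with 2 called in each direction. Of 14 destruction complex genes 5 were higher and 4 lower, among them the scaffold *AXIN1* (-1.23), the APC partner *AMER1* (-1.92) and the kinase *CSNK1A1* (0.45). Of 15 nuclear cofactors, 4 were higher, including *BCL9L* (2.93), and 8 lower, including *PYGO1* (-2.77). A gene with a mean under 1 in 1 line, such as *SOX9* in HAP1, passed the filter only through the other line. With 1 cell line of each kind, these are differences between HCT116 and HAP1 and not between tissues.

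The next comparison asks whether the targets moved in HAP1 after *NUP58* was mutated. Without the replicate number as a block limma called no member, a count that says little beside a background of 6.6%. Of the 6 that passed the filter over the 32 libraries (*AXIN2*, *NKD1*, *ZNRF3*, *TCF7*, *LEF1* and *MYC*), 0 differed in the mean of the 6 clones against WT at an adjusted p under 0.05 in limma, where 6.6% of the 13180 genes did. With the block *MYC* and *LEF1* were called in C5 and *MYC* in the F test over lines, as given below. That blocked fit of C5 called 2147 of 13164 genes, beside 994 without the block. At an unadjusted p under 0.05 there were 2 (*LEF1* and *NKD1*), and a test per gene without moderation called 0. The log2 fold changes were 0.41 for *MYC* (standard error 0.247, adjusted p = 0.366), 0.35 for *LEF1* (0.136, 0.129), 0.02 for *ZNRF3* (0.0723, 0.937), -0.11 for *TCF7* (0.125, 0.711), -0.14 for *AXIN2* (0.154, 0.67) and -0.35 for *NKD1* (0.164, 0.225), with the standard error and adjusted p in parentheses. Their median was -0.045, beside -0.02 for all genes. Against EV in place of WT, *NKD1* was at 0.008, and without WT replicate 4, which held 6.27 FPKM of *AXIN2* and 4.21 of *NKD1*, the value of *AXIN2* was 0.039.

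In the single lines against WT, limma called 0 of the 6 members in each of 7 comparisons. The share of all genes called was 0.479% for C1 and 0.732% for C2, only 0.0911% for C3 and 0.16% for C4, and 7.55% for C5 and 11.7% for C6, against 0.038% for EV. Of the 42 member tests 4 had an unadjusted p under 0.05: *LEF1* in C2 and C5, *NKD1* in C5 and *MYC* in C6. An F test over the 8 lines called 0 members, against 21.5% of genes.

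*LEF1* was above the WT mean in nearly every clone library and in every EV library. WT held 12.6, 8.12, 8.51 and 8.54 FPKM in replicates 1 to 4, EV 12.2, 12.9, 9.85 and 9.62, and the clones ran from 6.51 through a median of 12.6 to 15.7 over 24 libraries. Of the 24 clone libraries 23 were above the WT mean of 9.44 and 10 were above every unedited library. All unedited libraries lay within the range of the clones. EV was itself 0.23 above WT on the log2 scale (adjusted p = 0.845, limma with the replicate number as a block). The smallest adjusted p in a single line was 0.0847, in C5 (log2 fold change 0.50, standard error 0.156). It was 0.0329 without WT replicate 1, and 0.0471 once the replicate number was a block. In the mean of the 6 clones *LEF1* passed only when C3 was left out (adjusted p = 0.0413).

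*MYC* varied widely between replicates of the same line. WT held 316, 547, 252 and 262 FPKM in replicates 1 to 4, EV 309, 317, 244 and 310, and C6 497, 619, 395 and 1131. C5 held 347, 811, 353 and 509. Replicate 2 was the highest in 6 of the 8 lines, the exceptions being C2 (replicate 1) and C6 (replicate 4), and the highest was 1.3-fold (EV) to 2.86-fold (C6) the lowest. An F test over the replicate number called *MYC* (adjusted p = 0.000877) and no other of the 6, where 52.8% of genes were called. With the replicate number as a block in the F test over lines, *MYC* was the only member called (adjusted p = 0.0123, against 0.212 without the block), where 34.9% of genes were called. In C6 its log2 fold change was 0.90 (standard error 0.328, adjusted p = 0.112), and it was 1.05 against EV (adjusted p = 0.0189) and 1.14 without WT replicate 2 (0.0304). In C5 it was 0.54 (adjusted p = 0.337, but 0.0214 in the blocked fit).

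**Figure D2:**
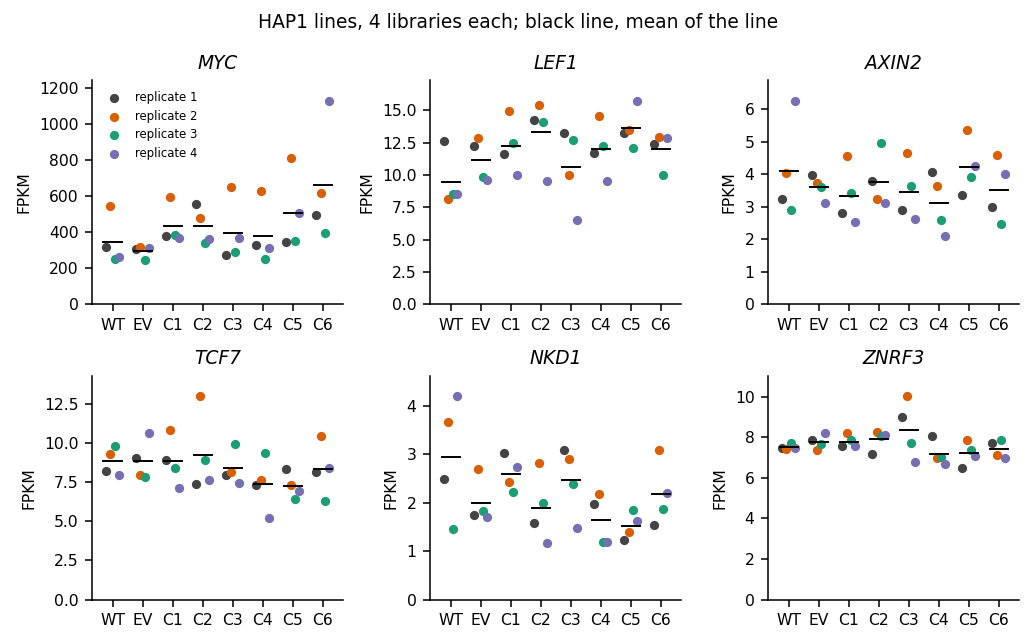
FPKM of the 6 Wnt target genes above the filter in the 8 HAP1 lines, 1 point per library colored by replicate number, with the mean of each line as a black line. MYC replicate 2 is the highest point in 6 lines, C6 replicate 4 stands at 1131, and the clones of the other 5 genes overlap WT.

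The feedback genes and *TCF7* were not called in any line. Over the 24 clone libraries *AXIN2* ran from 2.10 to 5.35, *NKD1* from 1.16 to 3.09, *TCF7* from 5.229 to 13.003 and *ZNRF3* from 6.48 to 10.0 FPKM. *RNF43* was below the filter, but its low values were not the same in every line: WT held 0.981, 0.961, 0.626 and 0.659, C2 held 0.12, 0.083, 0.092 and 0.361, and C5 held 0.221, 0.289, 0.122 and 0.621. In C2 and C5 each library was below each WT library (exact two-sided permutation test, p = 0.0286 each, the smallest that 4 against 4 can give, run for the 10 members in 7 lines and not adjusted). In C5 only the step from 0.621 to 0.626 FPKM parted the groups. The share of all genes without overlap is not given. In C3 and C4, by contrast, 1 library each was above WT, and in the mean of the 6 clones without a filter the log2 fold change was -0.35 (standard error 0.144, adjusted p = 0.215). *SP5* was between 0 and 0.715 in 31 HAP1 libraries and 2.31 in C6 replicate 4, the library with the highest *MYC*.

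Limma did call other genes of the pathway in the mean of the clones. Of 18 other Wnt targets tested, 6 rose and 0 fell in the mean of the 6 clones, beside 3.17% of all genes that rose. Their median log2 fold change was 0.35, beside -0.02 for all genes. *CCND1* held 1.97, 2.24, 3.90 and 1.35 FPKM in WT and ran from 4.45 through 8.53 to 23.6 in the clones, above every unedited library in 24 of 24 (log2 fold change 1.76, standard error 0.13, adjusted p = 3.46e-10). *CCND2*, another D-type cyclin, rose by 1.26 (standard error 0.255, adjusted p = 0.00219), and *EPHB2*, a guidance receptor of the crypt, by 0.56 (0.104, 0.000891). The unmoderated test called 1 of the 18 and did not call *CCND1* (adjusted p = 0.0837), *CCND2* (0.141) or *EPHB2* (0.275). The list was chosen with earlier results of these data known, so the count of 6 is not read against the 3.17%. The receptors *FZD8*, *FZD1* and *FZD3* rose among 15 tested (0.91, 0.71 and 0.60, adjusted p = 5.38e-05, 7.37e-05 and 0.0272), with *FZD3* at 0.0999 without WT replicate 1. *FZD8* averaged 0.858 FPKM in unedited HAP1 and passed the filter only through the clones, so its place among the 15 was partly set by its rise. The inhibitor *SFRP1* rose by 1.42 among 5 (adjusted p = 2.84e-06), and EV, with 3.72 ± 0.476 (SD, n = 4), was also above WT, with 1.84 ± 0.426 (SD, n = 4). Among 8 ligand and secretion genes *WLS*, which carries Wnt ligands to the surface, rose by 0.38 (adjusted p = 0.00102), and did not pass against EV. Among 16 nuclear cofactors the corepressor *TLE1* rose by 1.02 (adjusted p = 8.83e-05) and *TCF7L2* by 0.47 (0.0439). The call of *TCF7L2* held in 17 of 38 fits that left out a library or a line. None of 14 destruction complex genes passed in limma, with 2 at an unadjusted p under 0.05 and 0 by the unmoderated test. *CTNNB1* was at 0.18 (adjusted p = 0.241) and *TCF7L1* at -0.31 (0.144). With a replicate block the other pathway genes called went from 12 to 19, while all genes called went from 870 to 1659 of 13180. Of 4 epithelial markers tested, *KRT8* (-1.29) and *KRT18* (-0.67) fell in limma (0 of 4 by the unmoderated test), and the summed level of all 10 was 49.2 to 57.5 in WT and 22.0 to 53.0 in the clones. Of 6 mesenchymal markers *ZEB2* rose (0.67), and the sum of the 7 was 139.6 to 181.5 in WT and 109.6 to 195.4 in the clones. The sum of the blood markers was 17.4 to 24.7 in WT, 14.5 to 25.8 in the clones and 3.18 to 3.94 in EV. Their part in the pathway results was not tested.

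The last comparison is that of the HCT116 clone with its 11 controls. With all 15 libraries, limma called 0 of the 7 members tested and 0% of 12960 genes at an adjusted p under 0.05, while 1342 genes had an unadjusted p under 0.05 and an unmoderated test called 17 genes and 0 members. *SP5*, *AXIN2* and *TCF7* were the members with an unadjusted p under 0.05. Their log2 fold changes were 1.04 (standard error 0.458, adjusted p = 0.452), 0.56 (0.251, 0.453) and 0.28 (0.118, 0.431). The median of the 7 was 0.26, beside 0.004 for all genes.

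**Figure D3:**
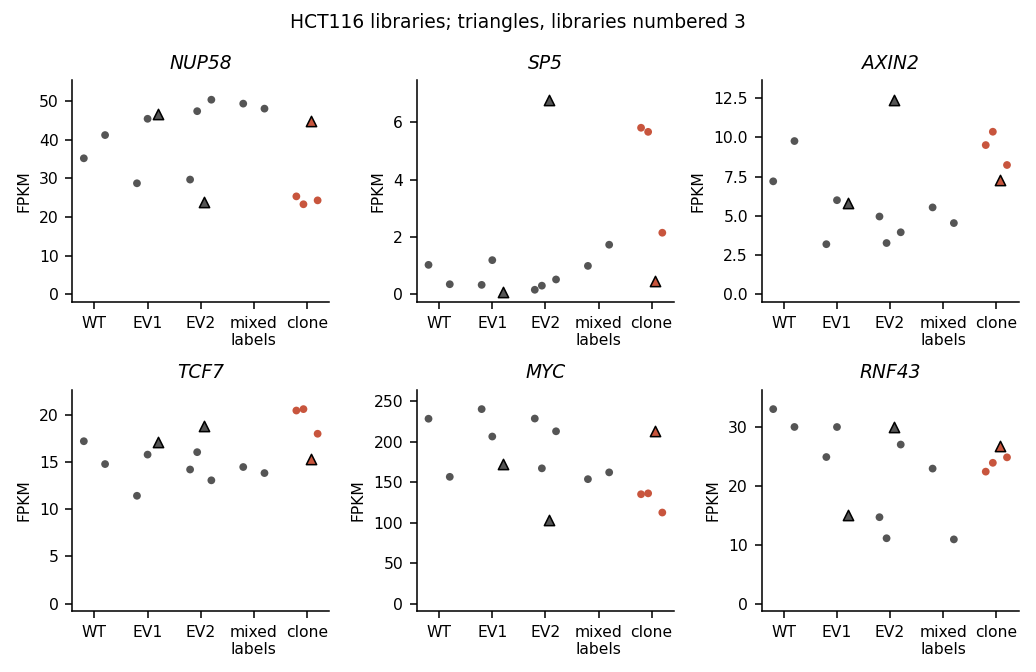
FPKM of NUP58 and 5 Wnt target genes in the 15 HCT116 libraries by label (mixed labels, the 2 controls whose title and genotype disagree), with the clone in red and libraries numbered 3 as triangles. SP5 is 5.81, 5.67 and 2.15 in 3 clone libraries, 0.443 in clone replicate 3 and 6.79 in EV2 replicate 3, and NUP58 shows the same 2 libraries on the other side.

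2 libraries set the *SP5* result. The libraries labelled clone replicates 1 to 4 held 5.81, 5.67, 0.443 and 2.15 FPKM. The controls ran from 0.081 through a median of 0.514 to 6.79, and the value of 6.79 was that of the library labelled EV2 replicate 3, while the next highest control was at 1.73. *TCF7* held 20.4, 20.6, 15.3 and 18.0 in the clone and 11.4, 14.8 and 18.9 (lowest, median and highest) in the controls, the last again EV2 replicate 3. *MYC* ran the other way, with 135, 136, 213 and 112 in the clone and 103 (EV2 replicate 3) to 240.0 in the controls. *AXIN2* held 9.51, 10.4, 7.28 and 8.24 in the clone and 3.19, 5.54 and 12.4 in the controls, with EV2 replicate 3 highest and WT replicate 2 at 9.77.

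Without the 3 libraries numbered 3 (3 clone against 9 control libraries), limma called 3 of the 7 members, *SP5*, *TCF7* and *MYC*, where 5.92% of 13000 genes were called and 3.62% rose. *SP5* rose by 1.65 (standard error 0.296, adjusted p = 0.00686), from a mean of 0.729 ± 0.529 (SD, n = 9) to 4.54 ± 2.08 (SD, n = 3), 6.23-fold. Its control mean was under the filter of 1, so it was tested only because the clone libraries were high. The count of 3 of 7 is therefore not read against the 5.92%. *TCF7* rose by 0.42 (0.116, 0.0485), from 14.5 ± 1.71 (SD, n = 9) to 19.7 ± 1.47 (SD, n = 3). *MYC* fell by 0.59 (0.155, 0.04), from 194.9 ± 34.9 (SD, n = 9) to 128 ± 13.4 (SD, n = 3). In each of the 3 genes the clone did not overlap the controls (exact two-sided permutation test, p = 0.00909 each, the smallest that 220 arrangements can give, not adjusted for the 10 members tested). These are the genes that limma called on the same libraries, and the share of all genes without overlap is not given. The non-overlap is therefore a description and not further support. *AXIN2* was at 0.76 (0.244) with an adjusted p of 0.0791, and at 9.37 ± 1.07 (SD, n = 3) against 5.38 ± 2.10 (SD, n = 9) FPKM. Its 3 clone libraries overlapped WT replicate 2, with 9.77, and its exact permutation p was 0.0273. *NKD1*, *ZNRF3* and *RNF43* had exact permutation p-values of 0.127, 0.255 and 0.755. *LEF1* stayed at or below 0.213 and *LGR5* at or below 0.263 in all 15 libraries. The choice to leave out all libraries numbered 3 was itself prompted by the *NUP58* values given above. Leaving out only the libraries labelled clone replicate 3 and EV2 replicate 3, a choice made after seeing the data, gave 1.72 for *SP5* (adjusted p = 0.00427), -0.57 for *MYC* (0.0314), 0.40 for *TCF7* (0.0503) and 0.74 for *AXIN2* (0.0634). All these values rest on 3 libraries of 1 clone, so the clone and the mutation cannot be told apart.

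**Figure D4:**
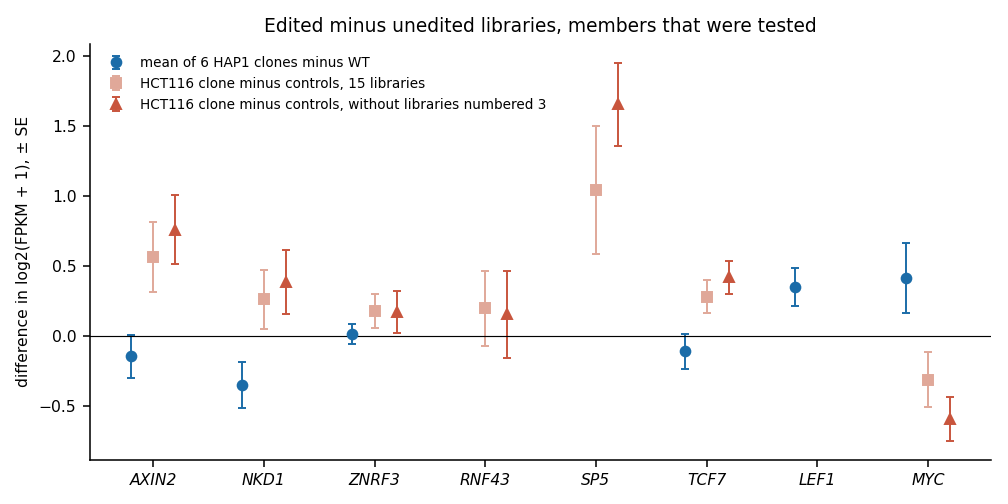
Difference in log2(FPKM + 1) between edited and unedited libraries (± standard error from limma) for the members that were tested: the mean of 6 HAP1 clones minus WT (circles), the HCT116 clone minus controls with all 15 libraries (squares) and without the libraries numbered 3 (triangles). SP5 is at 1.65 and MYC at -0.59 in the last, and no HAP1 value passed the test.

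With all 15 libraries limma called 0 of the other pathway genes and 0 markers in the HCT116 clone, and the unmoderated test called 0 as well, with 4 of 16 other targets and 3 of 13 receptor genes at an unadjusted p under 0.05. Without the libraries numbered 3, where 5.92% of all genes were called and 3.62% rose, 4 of 16 other Wnt targets tested rose: *SOX9* by 1.30 (adjusted p = 0.00228), *ETS2* by 1.34 (0.0241), *KREMEN1* by 0.67 (0.0305) and *NOTUM*, a secreted enzyme that inactivates Wnt ligands, by 1.23 (0.0388). *NOTUM* and *KREMEN1* are also the 2 of 4 inhibitors that rose. *FZD7* rose by 1.13 among 13 receptor genes (0.0146) and *WNT3A* by 0.80 among 10 ligand and secretion genes (0.0364). None of 14 destruction complex genes and none of 14 nuclear cofactors passed in limma, with 1 and 5 at an unadjusted p under 0.05. Of the mesenchymal markers *ZEB1* and *TWIST1* rose (1.20 and 1.15) of 4 tested, and the sum of the 7 was 21.3 to 22.7 in the 3 clone libraries and 5.24 to 14.9 in the 9 controls. Of 7 epithelial markers *EPCAM* fell (-0.76) and *KRT20* rose (1.00), with a sum of 1759 to 1942 in the clone and 1437 to 2372 in the controls. *KRT20* averaged 0.704 in the unedited controls, under the filter, and was not tested with all 15 libraries. It was tested here only because the clone libraries were high, so its rise was partly set by the filter. Of 2 blood markers tested *RUNX1* rose (1.14) and *LYL1* fell (-1.30), with sums of 17.5 to 18.8 and 6.31 to 17.6, and *PTPRC* and *CD34* were at 0 in both groups. Their part in the Wnt target values was not tested.

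The genes whose levels ran most closely with a member were listed by Pearson's r of log2(FPKM + 1), as a description over libraries that share lines and replicate numbers. Over the 32 HAP1 libraries *MYC* ran with *CACNA1H* (0.964), *SOX2* (0.96) and *HLTF* (0.949), *AXIN2* with *SPINK2* (0.742), *PHC1* (0.7) and *RARG* (0.682), and *LEF1* with *CTBP2* (0.733), *FRAT2* (0.715) and *ATP6V1E2* (0.709). The closest for *TCF7* was *PRRT4* (0.644), for *NKD1* *RP11-166B2.1* (0.606) and for *ZNRF3* *DCLRE1C* (0.586). Over the 15 HCT116 libraries *RNF43* ran with *LPAR1* (0.94), *GLT8D1* (0.939) and *EHF* (0.937). The closest for *NKD1* there was *WDR31* (0.83), and for *ZNRF3* it was *VSIG10* (0.812). No r is given there for *SP5*, *TCF7*, *MYC* and *AXIN2*, whose clone and control libraries differed at an exact permutation p under 0.05 without the libraries numbered 3.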

How the data were processed

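RNA of 32 HAP1 and 15 HCT116 libraries was sequenced by the study. The authors deposited 1 table of FPKM values per gene, and per the labels FastQC, STAR and RSEM were used. Versions are not given in the sources used here. No count was used, so depth is unknown. The members and gene lists were chosen with earlier results of these data known. FPKM were tested as log2(FPKM + 1) with limma 3.58.1 (R 4.3.3, mean-variance trend), keeping genes whose FPKM averaged 1 or more in the libraries compared, with Benjamini-Hochberg adjustment over all genes kept and a threshold of 0.05. Single members were also tested by exact two-sided permutation (Python 3.11.15, numpy 2.4.6, pandas 2.3.3, scipy 1.17.1). Figures used matplotlib 3.10.9. Fits were tested on simulated data. All 10 members are named, and up to 3 genes with the smallest adjusted p per other list, except that all are named where few were called. Gene positions are those of GENCODE release 44 and may differ from the annotation behind the table. The correlation of same-numbered libraries' deviations was over 0.1 in all 4 pairs of WT with C1, C2, C3, C4 and EV, in 2 pairs each of C5 and C6, and in 1 of 4 pairs of the HCT116 clone with EV2. Alternatives changed the pseudocount, filter, scaling, test, block, control, call rule and libraries.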

Additional observations from a re-analysis of the deposited data

Results flagged for a closer look

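In 12 of 87 groups of 4 or more libraries, 1 library's FPKM stood apart from the others by more than Dixon's limit, where chance flags about 1 in 20 groups. For *LGR5* these were values of 0.0932 in C1, 0.0936 in C4, 0.0352 in C5 and 0.0168 in HCT116 EV2, with the other libraries of each group at 0, where any value above 0 passes the limit by construction, which leaves 8. The highest *SP5* library of C6 was at 2.31, and that of HCT116 EV2, labelled replicate 3, was at 6.795. The highest *LEF1* library of WT (replicate 1) was at 12.6. *MYC* was lowest at 244.3 in EV and highest at 597.2 in C1. *NKD1* was highest at 2.71 in EV, *RNF43* was highest at 0.361 in C2, and *ZNRF3* was lowest at 7.19 in C2. The causes were not tested.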

How the results depend on the processing

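Of 659 recomputed member fold changes, 635 kept their direction and side of the threshold, 12 lost a call, 6 gained one and 6 changed sign. Members called in the mean of the 6 HAP1 clones ranged from 0 to 1 when a library or line was left out, with 1 without C3. In single HAP1 lines the count of 0 ranged from 0 to 1 without 1 library (1 without WT replicate 1 or WT replicate 2), and was 1 with EV in place of WT. With the replicate number as a block, it was 2 in single lines and 0 in the mean of the 6 clones, and the F test over the 8 lines called 1. Both calls in single lines were in C5, where the block called 2147 of 13164 genes. HCT116 clone calls were 3 without all libraries numbered 3, a choice prompted by their *NUP58* values. They were 2 without the clone and EV2 libraries numbered 3, chosen after seeing the data. Between cell lines 4 of 7 calls were left with only libraries whose title and genotype both say wild type and 2 under an unadjusted p under 0.01 with a fold change over 2, and 6 to 7 when 1 library was left out. In the mean of the 6 clones the sign changed for *AXIN2* (0.039 without WT replicate 4, the range being -0.26 to 0.039 when 1 library was left out), *NKD1* (0.008 against EV) and *ZNRF3* (-0.025 against EV, -0.005 against WT and EV together, -0.006 without C3, the range being -0.006 to 0.031 when 1 line was left out, and -0.014 without all libraries numbered 2, added after seeing the data). Other pathway genes called there were 12, and 19 with the block, 21 against WT and EV together, 7 by the unmoderated test and 4 by the fold rule. In the same order, all genes called were 870, 1659, 2382, 390 and 92. In HCT116 the other pathway genes called were 0, and 6 without all libraries numbered 3, 4 without clone replicate 3 and 1 by the fold rule. Between cell lines the fold rule left 26. The causes were not tested. Depth limits could not be set from FPKM.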
